A study of Mus musculus with 8 samples.

Results

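The suprabasal keratins and cornified envelope genes studied here are Krt1, Krt10, Ivl, Lor, Flg, Sprr1a, Sprr1b, Sprr3, Tgm1 and Tgm3. They were taken as every probe set whose single gene symbol in the platform annotation is 1 of these 10 symbols, which gave 12 of the 22690 probe sets on the array and 10 of 12394 genes. All 10 genes were present, Lor with 3 probe sets and the others with 1 each. The arrays held RNA of whole skin from newborn FVB mice, pooled from 3 animals of 1 genotype per array. There were 4 groups of 2 arrays: double_null (pRb-/-;p53-/-), pRb_null (pRb-/-;p53+/+), p53_null (pRb+/+;p53-/-) and control. The genes for pRb and p53 were inactivated in stratified epithelia, but neither the driver of the deletion nor the alleles of the controls are named in the sources. The submitters scaled every probe set to mean 0 and SD 1 across its 8 arrays before deposit. A score says where an array lies among the 8 arrays for that probe set, and neither a level nor a fold change can be read from it. All scores and differences are given in SDs of the probe set concerned. The presence of keratinocyte markers could not be checked for the same reason.

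Keratinocytes that leave the basal layer switch to the keratin pair Krt1 and Krt10, which form the filament network of the spinous cells. Later they make the precursors of the cornified envelope: involucrin (Ivl), loricrin (Lor), filaggrin (Flg) and the small proline-rich proteins (Sprr genes). Transglutaminases such as Tgm1 and Tgm3 crosslink these proteins into the insoluble shell of the dead surface cells. Flg and Lor mark the granular layer, whereas Sprr1a and Sprr1b are also known as genes induced in stressed or wounded epidermis. Ivl, Lor, Flg and the Sprr genes lie close together on chromosome 3 in the epidermal differentiation complex.

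For each of the 8 arrays the nearest other array was its genotype mate (r over all probe sets 0.118 to 0.337). Nothing in the labels tells whether mates came from different pools of animals, and the p-values may thus cover technical spread only. Precision is limited by the small number of arrays. The 64 control probe sets of the array had mean scores of 0.16 and 0.04 in double_null, 0.23 and 0.06 in pRb_null, −0.04 and 0.61 in p53_null, against −0.69 and −0.37 in control, whose arrays were lowest. This difference runs with every comparison that uses the control arrays, and its part in the results below was not tested. Genes with several probe sets agreed weakly: over 4958 such genes the median r between their probe sets over the 8 arrays was 0.19, and in 33.5% of them it was below 0.

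Of the 12 probe sets, 1 passed the test, in 1 of 9 comparisons: Sprr1a was lower in skin without p53, averaged over both states of pRb, with a difference of −1.74 ± 0.15 (SE, adjusted p = 0.038). Sprr1b, its close relative, had its highest scores in double_null and pRb_null and did not pass. The test was limma's linear model on all 8 arrays without variance moderation, adjusted by Benjamini-Hochberg over all 22690 probe sets, with a call at an adjusted p under 0.05. In the p53 comparison 1.26% of all probe sets were called. The call was lost under limma's moderated test (adjusted p = 0.13), which called 0 of all probe sets, and under quantile normalization (0.055). With any 1 array left out it was lost too, as were nearly all calls of the whole array, while the difference ran from −1.84 to −1.65.

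In the other 8 comparisons 0 of the 12 passed. The share of all probe sets called was 0.846% for double_null against control, 0% for pRb_null against control and 0.119% for p53_null against control. It was 0.405% for double_null against pRb_null, 0.0353% for double_null against p53_null, 0.00441% for the pRb effect averaged over both states of p53, 0% for the interaction of the 2 losses and 0.159% for any difference among the 4 genotypes. At an unadjusted p under 0.05, 2 of the 12 passed in double_null against control, where 18.7% of all probe sets did, 1 in pRb_null against control (10.6% of all) and 1 in p53_null against control (14.6% of all). The count was 2 of 12 for double_null against pRb_null (18.6% of all) and 2 of 12 against p53_null (11.9% of all). It was 1 for the averaged pRb effect (12.9% of all), 2 for the averaged p53 effect (22.1% of all), 1 for the interaction (10.5% of all) and 3 for any difference among the genotypes (18.7% of all). These counts lie near the background. Over the 12 probe sets the median difference was 0.41 for double_null against control, beside −0.01 over all probe sets, 0.40 for the averaged pRb effect, beside 0.10, and −0.23 for the averaged p53 effect, beside −0.13. Of the 12 probe sets, 8 did not overlap between double_null and control, as did 51.2% of all probe sets. Both double_null arrays lay above the other 6 arrays in 3 of the 12 (7.84% of all) and below them in 1 (10.1% of all). Limma's moderated test called 0 of all 22690 probe sets in each of the 9 comparisons, so its 0 of 12 tells nothing about these genes.

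**Figure D1:**
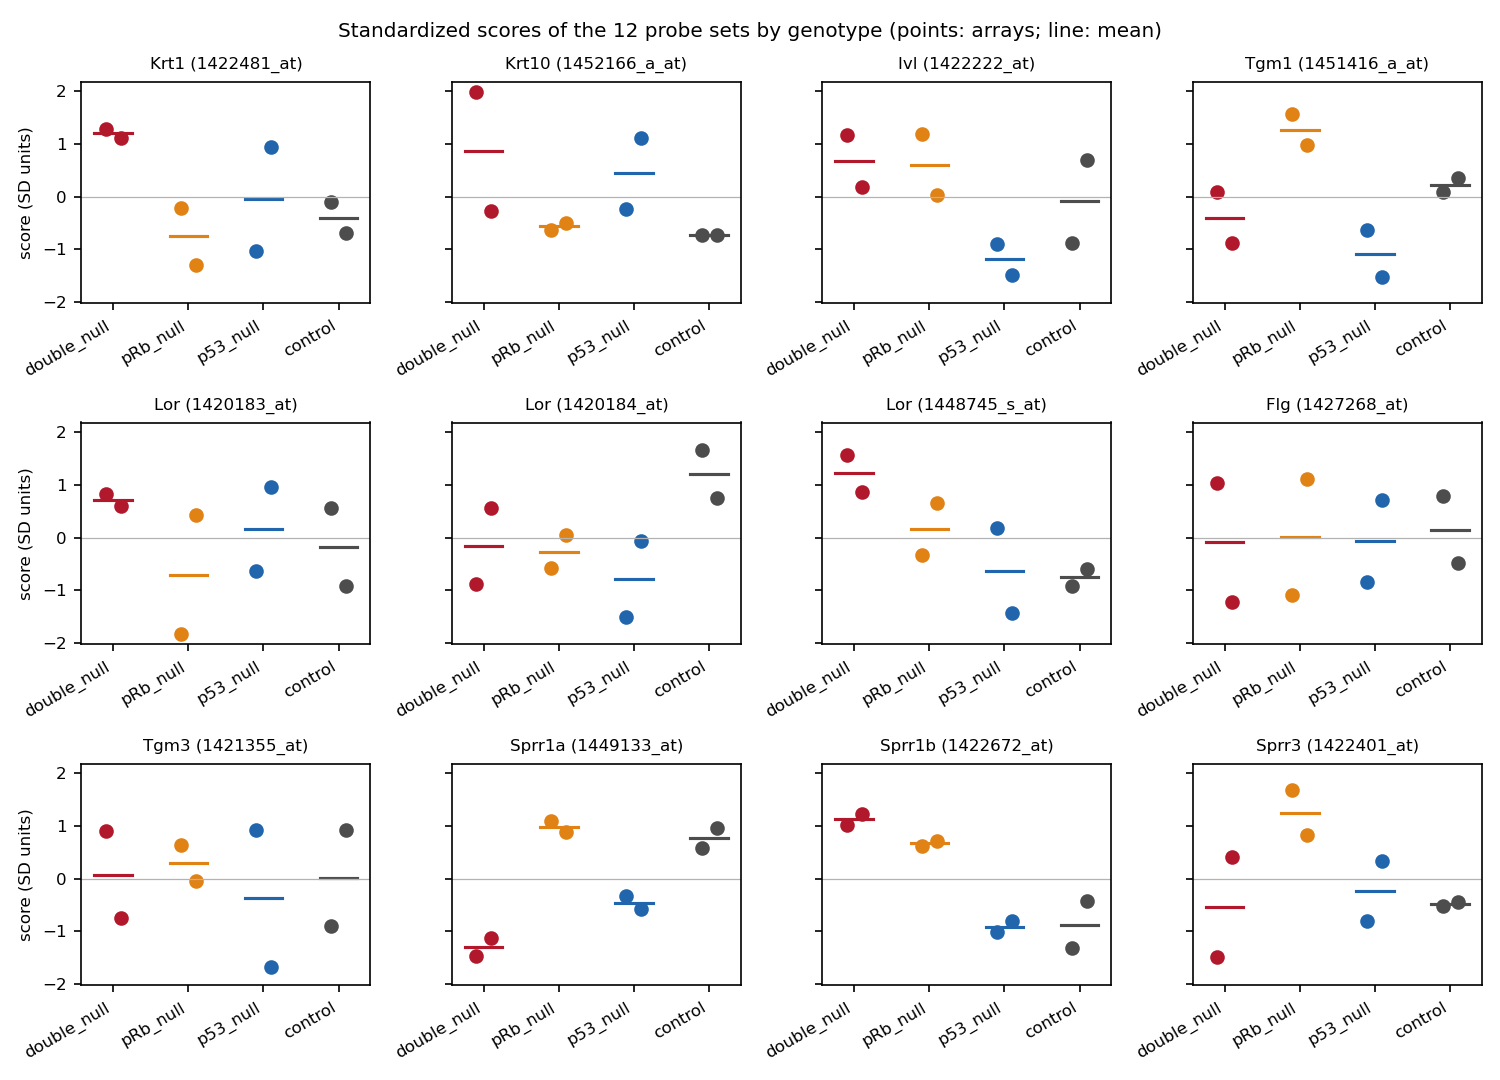
Standardized score (vertical axis, SD units) of each of the 12 probe sets in the 4 genotypes, with a point per array and a line at the mean of 2 arrays. Sprr1a is lowest in double_null and Sprr1b is highest there, whereas Flg and Tgm3 spread as widely within genotypes as between them.

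The early suprabasal keratins had their highest mean scores in double_null. Krt1, the type II keratin of spinous cells, scored 1.27 and 1.12 in double_null, −0.21 and −1.29 in pRb_null, −1.04 and 0.94 in p53_null, against −0.10 and −0.69 in control. Both double_null arrays lay above the other 6 arrays, and the 2 p53_null arrays stood far apart. The difference of double_null was 1.59 ± 0.82 from control (adjusted p = 0.39) and 1.94 ± 0.82 from pRb_null (adjusted p = 0.32). Krt10, the type I partner of Krt1, scored 1.98 and −0.27 in double_null, −0.63 and −0.50 in pRb_null, −0.23 and 1.11 in p53_null, against −0.73 and −0.73 in control. The 4 arrays without p53 all lay above the 4 arrays with p53, as in 5.89% of all probe sets, yet the 2 arrays of each p53-deficient genotype differed by more than the 4 p53-intact arrays did among themselves. The averaged p53 difference was 1.30 ± 0.66 for Krt10 and 1.14 ± 0.58 for Krt1 (adjusted p = 0.34 each), and Krt10 in double_null differed from control by 1.59 ± 0.93 (adjusted p = 0.44). The 2 control arrays hold the same Krt10 score to every deposited digit, and such exact ties between arrays occur in 83 of the 22690 probe sets.

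Ivl and Tgm1, which act in the upper spinous layer where envelope assembly starts, were lowest in p53_null. Ivl, the glutamine-rich scaffold of the early envelope, scored 1.16 and 0.18 in double_null, 1.18 and 0.03 in pRb_null, −0.89 and −1.48 in p53_null, against −0.87 and 0.70 in control. Both p53_null arrays were below every other array, 1 of them only just, while the control arrays lay on opposite sides of 0. Ivl in double_null differed from p53_null by 1.86 ± 0.80 (adjusted p = 0.47), and the averaged pRb difference was 1.27 ± 0.56 (adjusted p = 0.45). Tgm1, the membrane-bound crosslinking enzyme, scored 0.09 and −0.89 in double_null, 1.55 and 0.98 in pRb_null, −0.63 and −1.52 in p53_null, against 0.09 and 0.34 in control. The 4 arrays without p53 were all below the 4 arrays with p53, although double_null replicate 1 and control replicate 1 were almost level. Over all probe sets 8.14% were separated in that direction between these 4 and 4 arrays. Tgm1 had the third smallest p of the 12 for a difference among genotypes (adjusted p = 0.25). Its averaged p53 difference was −1.48 ± 0.36 (adjusted p = 0.14). From pRb_null, double_null differed by −1.67 ± 0.52 (adjusted p = 0.23). From control, pRb_null differed by 1.05 ± 0.52 (adjusted p = 0.57) and p53_null by −1.29 ± 0.52 (adjusted p = 0.37).

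The late granular genes showed no order of the genotypes that their probe sets shared. Flg, the precursor of the filaggrin that bundles keratin filaments, scored 1.03 and −1.21 in double_null, −1.09 and 1.10 in pRb_null, −0.84 and 0.72 in p53_null, against 0.79 and −0.49 in control. The 2 arrays of every genotype lay on opposite sides of 0, and the 4 genotype means ran only from −0.09 to 0.15. Double_null differed from control by −0.24 ± 1.32 (adjusted p = 0.94), a value that ran from −1.36 to 0.88 with 1 array left out. Tgm3, the transglutaminase of the granular layer and the hair follicle, scored 0.89 and −0.75 in double_null, 0.64 and −0.05 in pRb_null, 0.92 and −1.67 in p53_null, against −0.89 and 0.91 in control. Its arrays also straddled 0 in every genotype, and double_null differed from control by 0.06 ± 1.28 (adjusted p = 0.99), or by −0.84 to 0.96 with 1 array left out. With such a spread within genotypes, differences in Flg and Tgm3 were not detectable here.

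Lor, which encodes the most abundant protein of the envelope, was measured by 3 probe sets that disagreed. The probe set with the suffix _s_at scored 1.57 and 0.87 in double_null, −0.34 and 0.66 in pRb_null, 0.18 and −1.42 in p53_null, against −0.91 and −0.60 in control. Its double_null arrays were above all others, with a difference of 1.97 ± 0.72 from control (adjusted p = 0.27) and of 1.84 ± 0.72 from p53_null (adjusted p = 0.44). Of the 2 with the suffix _at, the second by identifier scored −0.88 and 0.57 in double_null, −0.58 and 0.05 in pRb_null, −1.50 and −0.06 in p53_null, against 1.65 and 0.75 in control, so that control was highest. In it double_null differed from control by −1.36 ± 0.82 (adjusted p = 0.45) and p53_null by −1.98 ± 0.82 (adjusted p = 0.38). The first scored 0.83 and 0.60 in double_null, −1.83 and 0.42 in pRb_null, −0.62 and 0.95 in p53_null, against 0.57 and −0.91 in control, a difference of 0.88 ± 1.10 between double_null and control (adjusted p = 0.71). The annotation gives a sequence accession for the _s_at probe set and for neither of the others. No direction can be given for Lor from these values.

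**Figure D2:**
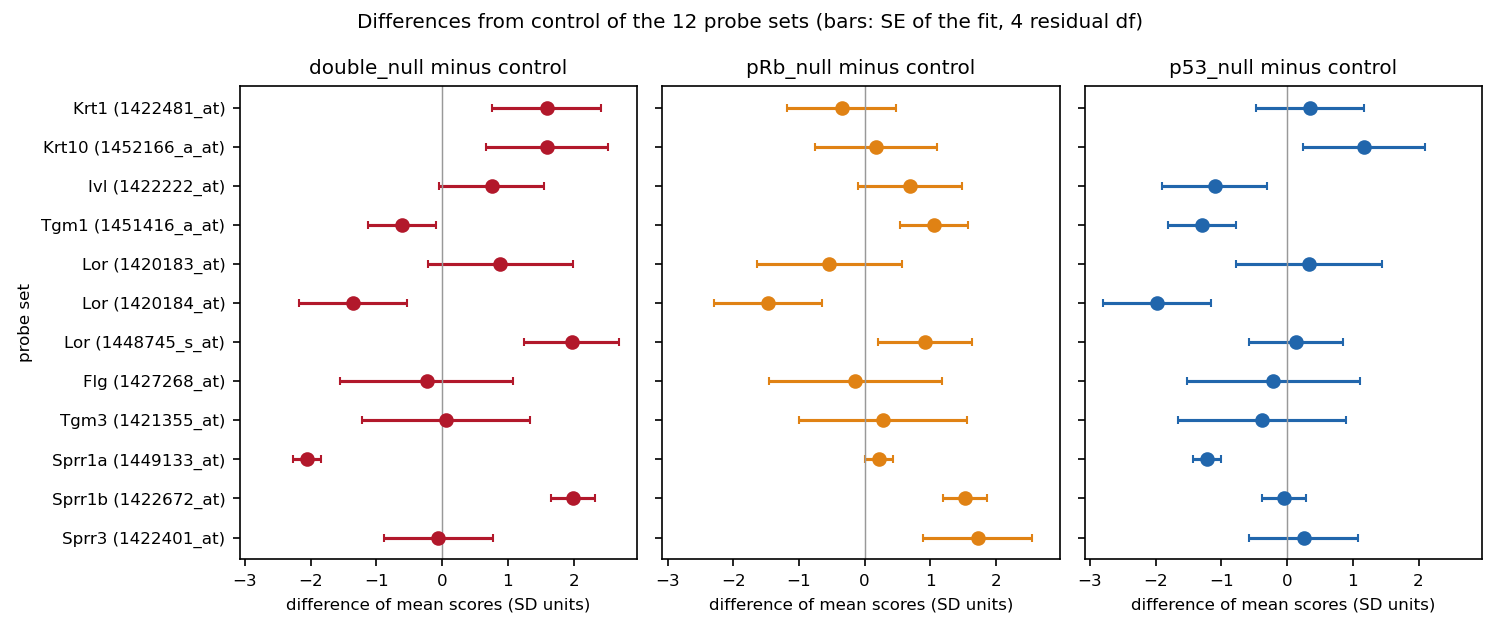
Difference of the mean score of each mutant genotype from control (horizontal axis, SD units) for the 12 probe sets, with bars of 1 SE from the fit. Sprr1a at −2.05 and Sprr1b at 1.99 in double_null stand farthest from 0 relative to their errors, and the 3 Lor probe sets do not share a sign.

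The Sprr genes encode short proline-rich precursors that act as bridges between other envelope proteins. Sprr1a, a gene of both differentiation and stress, scored −1.46 and −1.12 in double_null, 1.08 and 0.87 in pRb_null, −0.34 and −0.57 in p53_null, against 0.57 and 0.96 in control. The 4 arrays without p53 were all below the 4 arrays with p53, as in 8.14% of all probe sets, and both double_null arrays were below both p53_null arrays. Its within-genotype spread was the smallest of the 12 probe sets. Besides the averaged p53 effect that passed, double_null differed by −2.05 ± 0.21 from control (adjusted p = 0.057), by −2.27 ± 0.21 from pRb_null (adjusted p = 0.060) and by −0.83 ± 0.21 from p53_null (adjusted p = 0.32). The first and second of these passed when the median of each array was set to 0, with an adjusted p of 0.031 and 0.049. From control, p53_null differed by −1.22 ± 0.21 (adjusted p = 0.15) and pRb_null by 0.21 ± 0.21 (adjusted p = 0.78). The interaction, which asks whether p53 loss acts differently when pRb is also lost, was −1.05 ± 0.30 and did not pass (adjusted p = 0.40).

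Sprr1b, its close relative, scored 1.01 and 1.23 in double_null, 0.61 and 0.72 in pRb_null, −1.01 and −0.81 in p53_null, against −1.32 and −0.42 in control. The 4 arrays without pRb were all above the 4 arrays with pRb, which holds in that direction for 2.86% of all probe sets (2.41% in the other). The averaged pRb difference was 1.78 ± 0.24 (adjusted p = 0.15). Double_null differed by 1.99 ± 0.34 from control (adjusted p = 0.10) and by 2.03 ± 0.34 from p53_null (adjusted p = 0.21), while its difference from pRb_null was 0.45 ± 0.34 (adjusted p = 0.53). From control, pRb_null differed by 1.53 ± 0.34 (adjusted p = 0.30). In the scores, Sprr1a thus separated the arrays by p53 and Sprr1b by pRb, and in double_null the pair stood at opposite ends of their ranges. Whether the profiles of the 2 genes differ was not tested.

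Sprr3, a family member best known from oral and oesophageal epithelium, was highest in pRb_null. It scored −1.48 and 0.41 in double_null, 1.67 and 0.81 in pRb_null, −0.79 and 0.34 in p53_null, against −0.51 and −0.44 in control. Both pRb_null arrays were above all other arrays, and the double_null arrays were far apart. The difference from control was 1.72 ± 0.83 in pRb_null (adjusted p = 0.57), and double_null differed from pRb_null by −1.78 ± 0.83 (adjusted p = 0.35). Members of the Sprr family are similar in sequence, and probes may cross-hybridize, so the value of a single member is uncertain.

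The 3 Sprr genes are immediate neighbours on 1 strand of chromosome 3, in the order Sprr1b, Sprr3 and Sprr1a. The 250 bases upstream of each annotated start in RefSeq (GRCm38.p6, minus strand) are shown because these neighbours had unlike profiles. Each reads 5′ to 3′, with matches to TGANTCA in capitals. This is a loose form of the AP-1 motif, which Fos and Jun proteins bind, with any base at N.
Sprr1a, chr3:92485882-92486131: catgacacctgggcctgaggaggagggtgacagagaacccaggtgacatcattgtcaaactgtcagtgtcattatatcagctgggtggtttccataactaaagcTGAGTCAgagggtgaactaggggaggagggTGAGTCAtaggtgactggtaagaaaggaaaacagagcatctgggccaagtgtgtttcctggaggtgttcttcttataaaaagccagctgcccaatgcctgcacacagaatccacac
Sprr3, chr3:92458721-92458970: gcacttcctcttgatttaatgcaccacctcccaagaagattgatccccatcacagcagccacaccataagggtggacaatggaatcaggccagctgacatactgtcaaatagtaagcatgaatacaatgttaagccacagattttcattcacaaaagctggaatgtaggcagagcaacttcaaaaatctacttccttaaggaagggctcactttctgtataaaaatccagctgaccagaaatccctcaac
Sprr1b, chr3:92438780-92439029: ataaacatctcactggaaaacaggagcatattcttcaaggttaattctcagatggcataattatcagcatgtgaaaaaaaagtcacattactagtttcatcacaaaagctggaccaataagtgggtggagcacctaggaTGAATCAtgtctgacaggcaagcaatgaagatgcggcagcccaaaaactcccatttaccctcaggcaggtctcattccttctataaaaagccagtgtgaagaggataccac
Sprr1a had 2 matches, Sprr1b had 1 and Sprr3 had 0, searched on both strands. Of the 9 members with an upstream sequence in the table, 5 had at least 1 match (Ivl, Lor, Flg, Sprr1a and Sprr1b), whereas 6.75% of all 32851 upstream windows of this length did. In Ivl, Lor and Sprr1a the base at N was C or G, as in the usual AP-1 site, but in Flg and Sprr1b it was A. A TATA box, TATAAA, was found in 8 of the 9, all except Tgm1, against 12.4% of all windows. The letters CACCC, bound by KLF proteins, were in 8 of the 9, against 52.0% of all windows. The E2F motif TTTNNCGC, the kind of site through which pRb acts, was found in 1 of the 9, Tgm1, in 1 of its 2 windows, against 4.28% of all windows. Counted back from the start without gaps, Sprr1a and Sprr1b were identical at 25.6% of the 250 bases. The share was 22.8% for Sprr1a and Sprr3 and 28.0% for Sprr1b and Sprr3. Unrelated sequences would give about such shares. A count without gaps misses likeness that is shifted by a base, so it cannot tell how alike these sequences are. A match is a run of letters and not a measured binding site.

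Early and late differentiation were set side by side as the mean score of Krt1 and Krt10 and the mean score of Lor, Flg and Tgm3, each gene taken as the mean of its probe sets. The late minus early score was −0.82 and −0.85 in double_null, −0.04 and 1.37 in pRb_null, 0.44 and −1.40 in p53_null, against 0.53 and 0.77 in control. Both double_null arrays were below both control arrays, while each single mutant had 1 array on either side of 0. The early mean was 1.63 and 0.42 in double_null and −0.42 and −0.71 in control. The late mean was 0.81 and −0.43 in double_null and 0.11 and 0.06 in control, so the 2 groups overlapped in the late genes and not in the early ones. The late genes in this score include the probe sets of Lor that disagreed. With Ivl and Tgm1 counted as early, the difference of double_null from control was −0.72, against −1.48 without them. No test was made of this score, because its members were chosen with results of these data known.

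**Figure D3:**
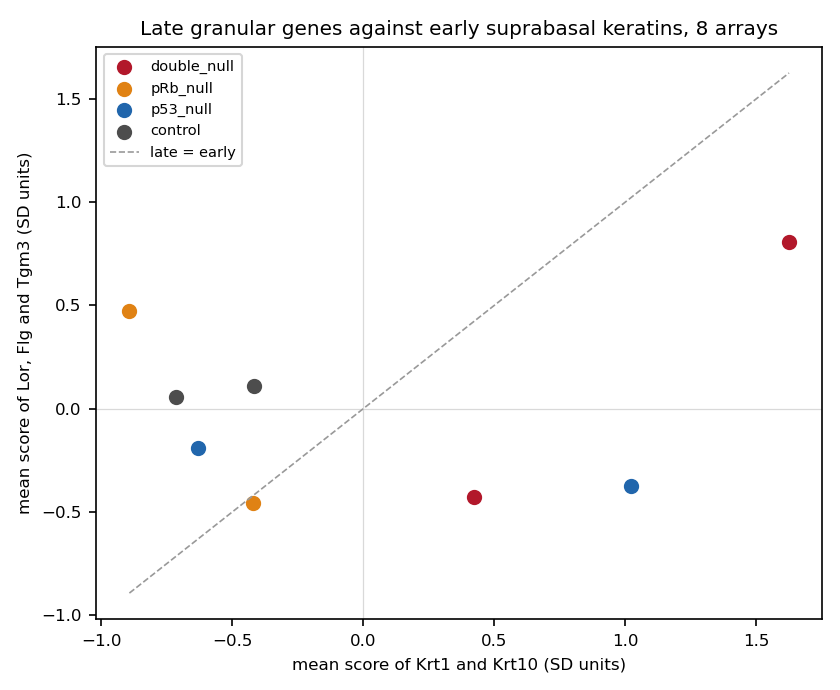
Mean score of Lor, Flg and Tgm3 (vertical axis) against the mean score of Krt1 and Krt10 (horizontal axis), both in SD units, with a point per array. The 2 double_null arrays and p53_null replicate 2 lie below the dashed line of equal scores with positive keratin scores, and both control arrays lie above it.

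Other genes of epidermal differentiation were read from lists chosen with earlier results of these data known. Of 31 probe sets of other envelope and granular genes (25 of 40 listed genes measured), 2 rose and 2 fell in double_null against control, where 0.846% of all probe sets were called. The median difference was −0.28, beside −0.01 over all probe sets. Rptn, repetin of the granular layer, scored 1.20 and 1.16 in double_null, 0.53 and 0.73 in pRb_null, −0.88 and −0.74 in p53_null, against −0.80 and −1.20 in control, and rose by 2.18 ± 0.17 in double_null (adjusted p = 0.037). As in Sprr1b, the 4 arrays without pRb were above the 4 with pRb. Krtdap, a keratinocyte differentiation protein, rose by 1.91 ± 0.14 in double_null (adjusted p = 0.035), where both arrays (1.55 and 1.49) were above the other 6. The genes that fell were Tchh (−2.33 ± 0.14, adjusted p = 0.029), trichohyalin of the inner root sheath, and Padi3 (−2.39 ± 0.16, adjusted p = 0.033), the deiminase that acts on it. Both are also in the hair follicle list. With any 1 array left out these 4 calls were lost, as were nearly all calls of the whole array. Such fits cannot tell whether the 4 hold. In p53_null against control 0 passed, and 21 of the 31 had a negative difference, with a median of −0.59, beside −0.15 over all probe sets. There 45.7% of all probe sets had a positive difference and the rest a negative one.

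Of the other suprabasal keratins, 3 of 5 were measured and 0 of 3 passed in any of the 8 comparisons between groups. Krt77, a keratin of suprabasal epidermis and sweat ducts, scored 1.37 and 0.95 in double_null, 0.54 and 0.44 in pRb_null, −1.40 and −1.23 in p53_null, against −0.44 and −0.23 in control. Double_null differed from control by 1.50 ± 0.18 (adjusted p = 0.066). Krt2, the keratin of the upper spinous and granular layers, went the other way, at −1.002 and −1.42 in double_null, 1.47 and 0.57 in pRb_null, −0.64 and −0.36 in p53_null, against 0.67 and 0.71 in control. Its averaged p53 difference was −1.71 ± 0.26 (adjusted p = 0.077). Krt80, the third, scored −1.25 and 0.04 in double_null, 0.69 and 1.40 in pRb_null, −1.05 and −0.96 in p53_null, against 0.14 and 0.99 in control, and double_null differed from control by −1.17 ± 0.60 (adjusted p = 0.39). Krt2 thus had the genotype order of Sprr1a, although it did not pass, and Krt1 and Krt2 lay at opposite ends of their ranges in double_null.

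Among regulators of epidermal differentiation, of 69 probe sets of 38 genes, 47 had a negative averaged p53 difference, with a median of −0.79, beside −0.13 over all probe sets. Over all probe sets 46% had a positive difference in that comparison and the rest a negative one. Of the 69, 2 fell and 0 rose, where 1.26% of all probe sets were called. Notch1, the receptor that drives the exit from the basal layer, fell by 1.75 ± 0.11 (adjusted p = 0.027). It scored −1.35 and −1.14 in double_null, 0.53 and 0.74 in pRb_null, −0.66 and −0.36 in p53_null, against 1.14 and 1.09 in control. Junb, an AP-1 subunit, fell by 1.75 ± 0.11 as well (adjusted p = 0.027). It scored −0.67 and −0.42 in double_null, 1.18 and 1.16 in pRb_null, −1.05 and −1.36 in p53_null, against 0.68 and 0.47 in control. A fit with 1 array left out has 1 array in a genotype and loses nearly all calls of the whole array. Both calls were lost in such fits, which cannot tell whether they hold.

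The epidermal differentiation complex was followed gene by gene from Lor to Flg. The annotation lists 64 genes there, 47 of them protein coding, and 26 were measured by 30 probe sets. All 6 measured Sprr2 probe sets, singled out after their values were seen, for relatives of Sprr1 with 1 pseudogene (Sprr2j-ps) among them, had their highest genotype mean in double_null, with a median of these means of 1.02, against 0.31 in pRb_null, −0.62 in p53_null and −0.37 in control. Over all probe sets 26.8% had their highest mean in double_null. Probes of these similar genes may cross-hybridize, so the 6 Sprr2 values may not be independent. In Sprr2k the means of double_null and pRb_null were level at 0.66 and 0.65, and the double_null arrays of Sprr2j-ps lay at 1.61 and −1.05, so the order is not clear in these 2. Sprr2d, which scored 1.42 and 0.98 in double_null, 0.63 and 0.47 in pRb_null, −0.54 and −0.65 in p53_null, against −1.002 and −1.30 in control, rose by 2.35 ± 0.20 in double_null against control (adjusted p = 0.040). It was 1 of 2 called in that comparison among the 33 probe sets of other genes of the complex, where 0.846% of all probe sets were called. The other was S100a8, an alarmin subunit, which rose by 2.23 ± 0.08 (adjusted p = 0.017). In the averaged p53 effect S100a8 rose by 1.64 ± 0.06 (adjusted p = 0.019), and S100a3, known from the hair cuticle, differed by −1.70 ± 0.16 (adjusted p = 0.044). With any 1 array left out the calls among the 33 were lost in both comparisons, as were nearly all calls of the whole array. Such fits cannot tell whether these calls hold.

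The late cornified envelope genes of the Lce1 family, which are expressed in the outermost living layers, had another order. They were singled out after their values were seen. Of 11 Lce1 probe sets for 9 genes, 10 had their highest genotype mean in p53_null and 7 their lowest in pRb_null, where 20.6% and 21.8% of all probe sets did. The median of the genotype means was 0.23 in double_null, −1.05 in pRb_null, 1.26 in p53_null and −0.18 in control. The double_null median covers unlike patterns. Lce1g, Lce1h and Lce1i had their lowest mean in double_null (−0.93, −1.24 and −1.26), whereas the other Lce1 probe sets had double_null means above control. Lce1i in double_null differed by −2.58 ± 0.15 from p53_null (adjusted p = 0.077) and by −1.47 ± 0.15 from control (adjusted p = 0.058). None of the 11 was called in the 4 comparisons counted for the family. These were double_null and p53_null against control, the averaged p53 effect and any difference among genotypes. Lce1a2 came nearest in the averaged p53 effect, at 1.50 ± 0.16 (adjusted p = 0.052), with scores of 0.43 and 0.02 in double_null, −1.35 and −1.24 in pRb_null, 1.51 and 1.04 in p53_null, against −0.24 and −0.18 in control. These genes are similar copies whose probes may cross-hybridize, so the 11 values are not independent.

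**Figure D4:**
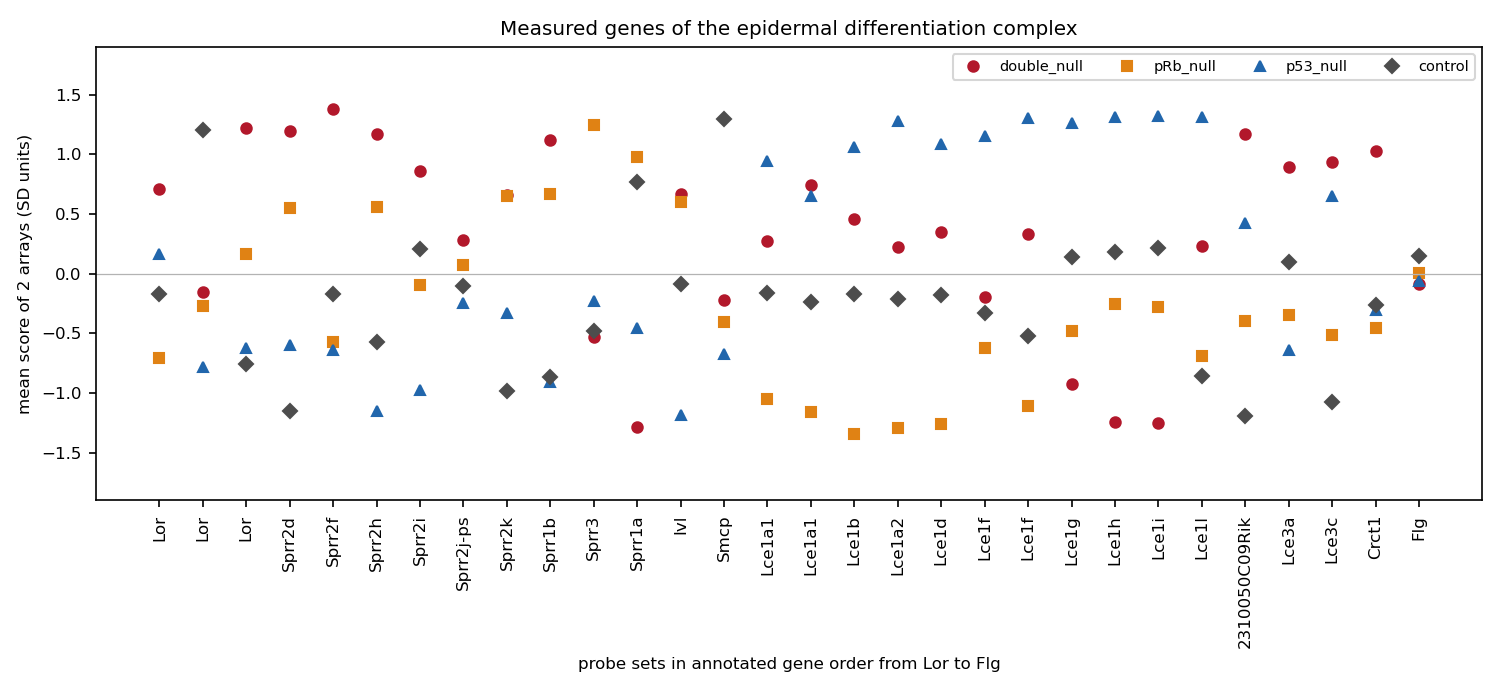
Mean score of 2 arrays per genotype (vertical axis, SD units) for the 30 measured probe sets in annotated gene order from Lor to Flg (horizontal axis, not to genomic scale). Sprr2 probe sets and Sprr1b are highest in double_null, Lce1 probe sets are mostly highest in p53_null, and the 4 means of Flg lie together.

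Markers of other cells and layers moved with the genotypes as well. In bulk skin fewer cells of a type and less RNA per cell cannot be told apart. The hair follicle list had mean scores of −1.38 and −1.03 in double_null, 0.66 and 0.50 in pRb_null, −0.23 and −0.17 in p53_null, against 0.80 and 0.85 in control over its 22 probe sets. Of these, 12 fell in double_null against control (0.846% of all probe sets called) and 13 in the averaged p53 effect (1.26% of all called), the comparison in which Sprr1a fell. Mast cell markers had mean scores of 0.26 and 0.38 in double_null, −0.50 and −0.65 in pRb_null, 0.93 and 0.80 in p53_null, against −0.66 and −0.55 in control, with 5 of 14 probe sets (Cma1, Tpsab1, Cpa3, Tpsb2 and Hdc) higher in that effect. Macrophage markers were at 1.02 and 0.72 in double_null, −0.61 and −0.34 in pRb_null, −0.27 and −0.07 in p53_null, against −0.49 and 0.03 in control, with 0 of 14 called in double_null against control. Basal keratinocyte markers overlapped between double_null (−0.05 and −0.34) and control (−0.67 and 0.33), with 0 of 25 probe sets called in that comparison and 1, Cdh3, lower in the averaged p53 effect (−1.57 ± 0.15, adjusted p = 0.044). Adipocyte markers (12 probe sets) were at 0.98 and 0.65 in double_null, 0.64 and 0.62 in pRb_null, −1.34 and −1.26 in p53_null, against −0.18 and −0.11 in control. All 12 had a positive averaged pRb difference, as did 54.2% of all probe sets. Of the 12, 0 were called, and 10 had an unadjusted p under 0.05 (12.9% of all probe sets). Like Ivl and Krt77, they had their lowest genotype mean in p53_null and higher means in both genotypes without pRb. Sprr1b was also higher in both genotypes without pRb, but its means in p53_null and control were level at −0.91 and −0.87. Skeletal muscle markers were at −0.17 and −0.51 in double_null, 0.64 and 1.02 in pRb_null, −0.28 and −0.28 in p53_null, against −0.39 and −0.02 in control, with 1 of 14 (Myh1) lower in the averaged p53 effect. Dermal fibroblast markers were at 0.84 and 0.17 in double_null, −0.49 and −0.23 in pRb_null, 0.38 and 0.46 in p53_null, against −0.35 and −0.77 in control, with 1 of 14 (Mfap5) higher in that effect. Of the wound keratins Krt6a, Krt6b, Krt16 and Krt17 (7 probe sets), Krt16 rose in double_null against control by 2.28 ± 0.14 (adjusted p = 0.032), whereas 1 probe set of Krt17, chosen after its values were seen, differed by −2.07 ± 0.28 (adjusted p = 0.080). Mean scores of the 7 were 0.26 and 0.17 in double_null, 0.36 and 0.08 in pRb_null, −1.06 and −0.91 in p53_null, against 0.33 and 0.77 in control. In double_null against control 5 of the 7 differences were negative, with a median of −0.69, beside −0.01 over all probe sets. In p53_null against control 6 were negative, with a median of −1.88, beside −0.15. With 1 array left out, 3 to 9 of all probe sets were called in the averaged p53 effect, against 285 with all arrays. The part of these shifts in the values of the 10 genes was not tested, and which markers are at background cannot be read from scores.

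The probe sets most like Krt10 and Lor in profile were looked up over the 8 arrays, as a description. For Krt10 they were Ugp2, Idnk, Bzw2, Blcap and Ampd3, with r from 0.93 to 0.94, and Krt1 had an r of 0.69 with Krt10. For the mean of the 3 Lor probe sets they were Il7, Olfr73, Pgap6, 1700018B24Rik and Lmx1b, with r from 0.95 to 0.98. Flg had an r of 0.49 with that mean. The named probe sets were picked as the highest of the whole array over only 8 arrays, and such picking alone can give a high r. Krt1 and Flg are each named as the highest r among the other members. Sprr1a had the lowest of them both times, at −0.77 with Krt10 and −0.45 with the Lor mean. The Lor mean joins probe sets that disagreed (r between pairs −0.40 to 0.26), so it is no clear profile of Lor.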

How the data were processed

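Each of the 8 arrays held RNA of whole newborn skin pooled from 3 animals. Per the submitters' processing notes RMA was used (version not stated). The authors deposited a score per probe set and array, scaled so that each of the 22690 has mean 0 and SD 1 (checked to 1e-06), and the sources do not state whether logarithms preceded this. No depth or level is held in them, so no filter on dim probes was made.

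Gene symbols came from the platform annotation (20393 probe sets with 1 symbol, 691 with several, 1606 with none), and all 12 member probe sets matched the RefSeq table by Entrez number. Upstream sequences are from RefSeq, GRCm38.p6. Samples were grouped by their titles. The linear models came from limma 3.58.1 (R 4.3.3) and covered all probe sets and arrays, with 1 mean per genotype and 4 residual degrees of freedom, by the ordinary statistic, since standardized rows tie the variances of probe sets together. Any difference among genotypes was tested by F. Adjusted p-values are from these fits. On simulated data for double_null against control (22690 probe sets, 100 changed by each size), 6% of shifts of 10 within-group SD and 1% of shifts of 5 were recovered, with 1 false call. The moderated test recovered 0%. Only these few were changed there, over normal noise, whereas 18.7% of the real probe sets had an unadjusted p under 0.05. The adjustment depends on that share, so the recovery does not give the sensitivity of the test on these data.

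The members and lists were chosen with earlier results of these data known. All members were described; other genes could be named if called or, in lists with no call, if among the 3 smallest p for double_null against control, unless said otherwise; the 5 profiles most like Krt10 and Lor were named too. Alternatives were the moderated test, quantile normalization, array medians set to 0, a replicate block, 1 probe set or the mean per gene, only the groups compared, leaving out each array and, chosen after seeing the data, a crossed replicate block. Same-numbered deviations from the genotype means correlated between −0.16 and 0.20 over pairs of genotypes, so the numbers were not taken to pair arrays. Figures were made with Python 3.11.15 and matplotlib 3.10.9.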

Additional observations from a re-analysis of the deposited data

How the results depend on the processing

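Of the 32 differences reported for the 12 probe sets, none reversed under quantile normalization or with array medians set to 0. The other alternatives that keep all arrays or only the groups compared leave these differences unchanged by design. Of 240 recomputed values, 234 kept both direction and side of the threshold. This count says little, since nearly all of the differences were not called to begin with. With 1 array left out, Flg (double_null against control, −1.36 to 0.88) and Tgm3 (−0.84 to 0.96) changed sign. The count of members called in the averaged p53 effect was 1, and it was 0 under the moderated test, quantile normalization, the replicate block (Sprr1a adjusted p = 0.12), the crossed replicate block (0.085) and with any 1 array left out (0 to 0). With array medians set to 0, 1 member was called for double_null against control and 1 for double_null against pRb_null, Sprr1a each time. The late minus early difference of p53_null from control was −1.13, was −0.15 with Ivl and Tgm1 counted as early (double_null −0.72, against −1.48), and ran from −2.05 to −0.21 with 1 array left out, p53_null replicates 1 and 2 giving these extremes. The replicate block changed no other call among the members. Same-numbered deviations of pRb_null and double_null correlated at −0.16, and the crossed numbers called 0 members in every comparison. Over all probe sets the calls for the averaged p53 effect numbered 285, against 0 to 203 under the other settings and 3 to 9 with 1 array left out; for double_null against control they numbered 192, against 0 to 205 and 1 to 8. For double_null against control, the calls among other envelope genes, other complex genes and regulators (4, 2 and 1) fell to 0 with any 1 array left out; in the averaged p53 effect (2, 2 and 2) they fell to 0 or 1, 0 and 0. The cause was not tested.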
